A study of Mus musculus with 72 samples.

Results

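Exon usage was compared between subjective day and subjective night in mouse liver, with reads counted per exon bin, the smallest stretch of a gene that its annotated transcripts share or do not share. The libraries were chosen by circadian time: 12 liver libraries from CT4 and CT8 (hours after subjective dawn) were set against 12 from CT16 and CT20, which makes 24 of the 36 liver samples and of the 72 samples of the series, the others being suprachiasmatic nucleus. All animals were C57BL/6 mice (C57BL/6J from the supplier, bought at 8 to 12 weeks of age) with no transgene or deletion. They received a diet without methionine and choline (MCD) or its isocaloric control for 11 days, 10 of them under 12 h of light and 12 h of dark and the last in constant darkness. Each of the 8 groups (control or MCD at CT4, CT8, CT16 or CT20) held 2 male mice and 1 female mouse by the labels, although the protocol text speaks of males alone. RNA came from the centre of the left liver lobe and was sequenced as stranded poly(A) libraries, so a lower level may be fewer cells of a type or less RNA per cell, which bulk RNA cannot tell apart.

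An exon bin is used more when a larger share of its gene's reads falls in it. Shares move when transcripts begin at another promoter, end at another poly(A) site, skip or include an exon, or keep an intron. Liver genes of metabolism follow the circadian clock and the feeding rhythm, and some RNA-binding proteins, such as the cold-inducible Rbm3 and Cirbp, cycle with body temperature. Introns that stay in a transcript and exons that carry a stop codon are known ways in which splicing factors limit their own messenger RNA. The MCD diet withholds the precursors of S-adenosylmethionine, the methyl donor of the cell.

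The sequences that carry the main results are printed 5′ to 3′. The promoters are from RefSeq (GRCm38.p6, 250 bases before to 50 after the start, the bases after the start in capitals) and are shown because the Slc39a7 and Eva1a bins that differ lie in first exons, and because the Pnkd exons that differ lie before this internal start. In the Eva1a promoter, an E-box (CACGTG) is in capitals as well. The windows were chosen by gene symbol. Whether the Slc39a7 and Eva1a starts are those of the transcripts that hold the differing bins was not checked. The windows lie at chr1:74332360-74332659 (+) for Pnkd, chr17:34031641-34031940 (-) for Slc39a7 and chr6:82041378-82041677 (+) for Eva1a.
Pnkd promoter: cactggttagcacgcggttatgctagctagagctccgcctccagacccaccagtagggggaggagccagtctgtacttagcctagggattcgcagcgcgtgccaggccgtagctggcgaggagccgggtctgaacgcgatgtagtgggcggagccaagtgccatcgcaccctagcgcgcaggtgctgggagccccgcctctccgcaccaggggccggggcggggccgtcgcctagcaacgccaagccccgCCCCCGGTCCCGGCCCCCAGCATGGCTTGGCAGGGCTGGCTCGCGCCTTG
Slc39a7 promoter: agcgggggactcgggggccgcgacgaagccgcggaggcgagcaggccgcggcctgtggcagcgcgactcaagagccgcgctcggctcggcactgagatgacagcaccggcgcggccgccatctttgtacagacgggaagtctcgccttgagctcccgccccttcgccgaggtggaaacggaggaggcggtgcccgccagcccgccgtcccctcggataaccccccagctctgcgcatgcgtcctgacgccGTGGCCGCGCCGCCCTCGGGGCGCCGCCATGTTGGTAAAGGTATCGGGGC
Eva1a promoter: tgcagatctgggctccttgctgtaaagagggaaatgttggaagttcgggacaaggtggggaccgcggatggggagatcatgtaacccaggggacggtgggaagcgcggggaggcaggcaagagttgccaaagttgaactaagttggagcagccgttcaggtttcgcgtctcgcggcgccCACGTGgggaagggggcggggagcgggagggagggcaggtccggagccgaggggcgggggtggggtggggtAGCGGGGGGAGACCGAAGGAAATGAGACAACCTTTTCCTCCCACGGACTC
The exon bins are from GENCODE M21 transcripts on GRCm38. Pnkd bin 9 (chr1:74287092-74287208, +) is an exon of the transcripts that start upstream, Pnkd bin 13 (chr1:74332663-74332791, +) belongs to the first exon of the downstream start, and Hnrnpl bin 22 (chr7:28817335-28817404, +) is an exon found in a transcript typed nonsense-mediated decay and one typed retained intron, with stop codons in capitals.
Pnkd bin 9: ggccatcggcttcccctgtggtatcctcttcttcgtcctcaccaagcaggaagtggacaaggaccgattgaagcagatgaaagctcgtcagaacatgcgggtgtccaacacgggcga
Pnkd bin 13: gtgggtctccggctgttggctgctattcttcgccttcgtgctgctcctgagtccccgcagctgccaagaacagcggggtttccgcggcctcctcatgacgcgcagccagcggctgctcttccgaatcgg
Hnrnpl bin 22: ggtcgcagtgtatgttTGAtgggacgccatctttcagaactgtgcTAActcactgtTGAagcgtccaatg
The 70 bases of Hnrnpl bin 22 hold 1 stop codon in each of the 3 reading frames, and their number is not a multiple of 3. The promoter windows were searched for 3 motifs on both strands. The E-box CACGTG was in 2349 of 32851 RefSeq promoters (7.15%), the D-box (TTATGTAA or TTACGTAA) in 347 (1.06%) and the RORE core AGGTCA in 5340 (16.3%). The Eva1a window held 1 E-box, 71 bases before the start, and the Pnkd and Slc39a7 windows held none of the 3 motifs.

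The 24 libraries held 44.9 to 82.6 M reads in bins by day and 47.8 to 65.7 M by night, and day libraries were deeper (65.4 ± 11.4 M against 54.9 ± 5.6 M, mean ± SD, n = 12 each, two-sided permutation p = 0.00837). By their level of mt-Nd6, which is read from the light strand of mitochondrial DNA, 2 kinds of library could be told apart: 14 had 12.0 to 25.3 CPM (counts scaled to the size of the library) and 3.87 to 4.27% of reads outside all bins, and 10 had 219 to 519 CPM and 9.96 to 14.2%. The day group held 6 of each kind and the night group 8 low and 4 high (two-sided Fisher's exact p = 0.68). Hepatocyte markers (Alb, Apoa1, Ttr, Cps1, Serpina1a) summed to 86900 to 129000 CPM by day and 96300 to 154000 by night, and no marker of the 7 cell types listed had a mean of 0 (lowest 0.111 CPM, the cholangiocyte chloride channel Cftr). At gene level 4027 of 17758 genes differed (22.7%; edgeR quasi-likelihood test, Benjamini-Hochberg adjusted p under 0.05), 2080 higher (11.7%) and 1947 lower (11%) at night. With library totals in place of TMM factors the split was 1258 higher and 2663 lower, with a median shift of -0.08 on the log2 scale. The clock genes checked the time labels: Nr1d1, a repressor of the clock, fell from 92.4 ± 30.2 to 2.69 ± 1.48 CPM (adjusted p = 7.08e-10) and Dbp, an activator of clock output, from 107 ± 61.2 to 4.92 ± 3.11 (2.75e-06), with no overlap between day and night libraries. Arntl (8.87 ± 10.6 to 41.7 ± 12.5 CPM, adjusted p = 0.00339), Npas2 (2.4 ± 3.71 to 13.4 ± 12, 0.0257) and Cry1 (9.72 ± 4.47 to 61.1 ± 13.2, 4.86e-07) rose and Ciart fell (12.8 ± 14.3 to 2.01 ± 1.34, 0.0158). Per1 (39.6 ± 31.6 against 27 ± 15.6, 0.591) and Per2 (37.9 ± 29 against 69.4 ± 39.9, 0.186) did not pass.

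Exon usage differed in 187 of 12385 genes tested (1.51%; edgeR diffSpliceDGE, gene p by Simes with Benjamini-Hochberg adjustment under 0.05). The bin with the smallest p, here the leading bin, took a larger share of its gene at night in 105 genes and a smaller one in 82. Of 191021 bins, 206 were used more at night (0.108%) and 150 less (0.0785%). The relative change is the log2 change of a bin against the other bins of its gene, and its median size over the 187 leading bins was 1.02. Most of these bins were small parts of their gene: in 109 genes the leading bin held under 1% of the gene's reads in both phases, and in 25 it held at least 5% in a phase. Calls were more frequent among highly expressed genes, with 105 of 1239 (8.47%) in the top 10% by mean CPM, and the called genes had a median of 147 CPM against 16.8 for all tested. At gene level 83 of the 187 also differed, 27 in the direction of their leading bin and 56 in the opposite one. Depth moved with phase: with all libraries thinned to the shallowest, 171 genes were called, 160 of them among the 187. Within the low mt-Nd6 kind alone 114 genes were called and within the high kind alone 50. For every refit on fewer libraries or with other settings, the change given is that of the bin that led in the full fit. The adjusted p and the call beside it are those of the whole gene, and another bin can carry them.

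Pnkd, the gene named for paroxysmal nonkinesigenic dyskinesia, shifted usage between the exons on either side of an internal start. Bin 9 took 3.20% of the gene's reads in the lowest day library, 5.70% in the median and 6.95% in the highest, and 1.78, 2.12 and 3.22% at night. Night libraries were lower except for a narrow overlap between 3.20 and 3.22%, and 5.25 ± 1.30% by day stood against 2.20 ± 0.396% at night, a relative change of -1.17 (SE 0.14, Simes adjusted p = 1.089e-11). The 4 other bins of the exons before the downstream start that were called, 5, 7, 10 and 11, changed by -1.16, -1.13, -1.19 and -1.15. In M21 these exons belong to transcripts that start upstream, while bins 12 and 13 begin the transcript Pnkd-202. Summed over bins 5, 7 and 9 to 11, the level was 11.86 ± 1.06 CPM by day and 10.99 ± 1.15 at night. The first exon of the downstream start went from 2.11 ± 0.74 CPM (1.07 to 3.78) to 4.43 ± 0.56 (3.55 to 5.44), and the shared exons, bins 15 and 17 to 23, from 51.6 ± 17.8 (26.7 to 83.6) to 122 ± 13.1 (103 to 144). The sums were not tested apart from the bins. At gene level Pnkd rose by 1.12 on the log2 scale (edgeR adjusted p = 4.896e-06). Over the day the shared exons were at 101.8 CPM at CT0, 64.8 at CT4, 38.3 at CT8, 50.2 at CT12, 120.6 at CT16 and 123.3 at CT20, while the exons of the upstream starts stayed between 10.3 and 13.3. CT0 and CT12 are described here and enter no test. The Pnkd call held in the low kind alone (-1.17), the high kind alone (-1.18), control diet alone (-0.95) and MCD alone (-1.39).

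**Figure D1:**
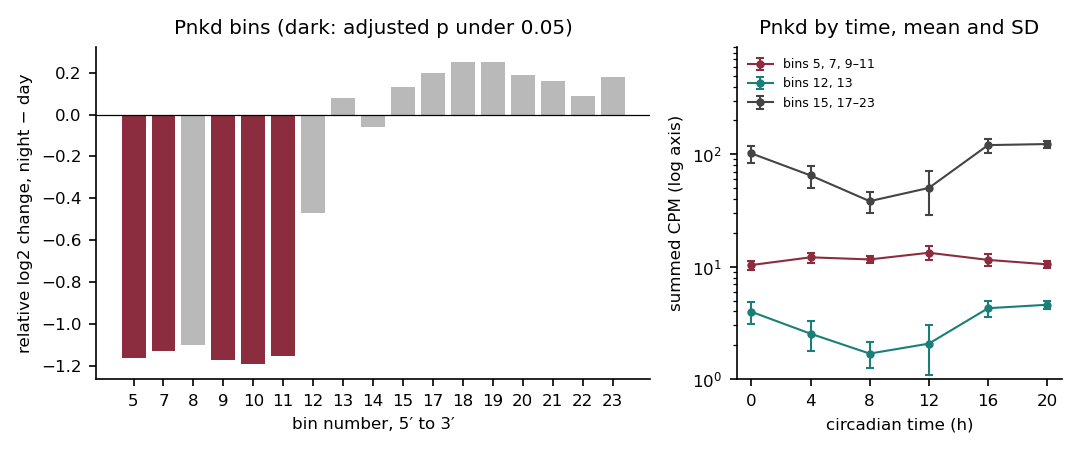
Pnkd in liver. Left, relative log2 change at night of each bin in gene order, dark where the bin's adjusted p is under 0.05; right, summed CPM of 3 groups of bins against circadian time (mean ± SD, log axis). Bins 5 to 11 sit near -1.2, and the shared exons rise from 38.3 CPM at CT8 to 123.3 at CT20 while the upstream exons stay between 10.3 and 13.3.

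Other genes changed at a 5′ end. Slc39a7, a zinc transporter of the endoplasmic reticulum, used bin 7, in its longer first exon, at 2.57, 3.87 and 5.05% by day (lowest, median, highest) and 4.37, 6.48 and 9.35% at night, with overlapping ranges. The means were 3.72 ± 0.78 and 6.55 ± 1.79%, a relative change of 0.75 (SE 0.17, Simes adjusted p = 0.01167). The call was lost without control CT8 replicate 1 (0.67, adjusted p = 0.0655) and without MCD CT16 replicate 1 (0.70, 0.0649). Eva1a, a regulator of autophagy and apoptosis, used its first-exon bin 3 less at night: 3.33, 6.53 and 8.60% by day against 2.13, 3.77 and 7.86%, a relative change of -0.74 (SE 0.13, adjusted p = 0.0001476), with wide overlap.

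Bins at the 3′ end moved in both directions. Zbed5, a zinc finger gene derived from a transposon, had the largest relative change of the genes named for size. Its bin 9, a last exon of 1798 bases, took 3.09, 8.51 and 13.2% of the gene's reads by day and 0.919, 2.51 and 6.22% at night. The ranges overlap, and the relative change was -1.63 (SE 0.18, Simes adjusted p = 6.959e-11). Bin 4, an intron of retained-intron transcripts, fell by 2.27, and together bins 4 and 9 went from 2.13 to 0.590 CPM while bins 6 and 7 were at 16.6 and 17.9 CPM; the gene as a whole did not differ (0.03, adjusted p = 0.8181). Mrpl57, a protein of the mitochondrial ribosome, used its 2348-base last exon, bin 4, at 4.87 ± 0.976% by day and 9.24 ± 3.39% at night (0.87, SE 0.12, adjusted p = 0.0001879). Rbm3, the cold-inducible RNA-binding protein, used its distal 3′ end bin 2 more at night: 4.66, 6.35 and 9.80% by day against 8.77, 12.6 and 17.7%, a relative change of 0.78 (SE 0.16, adjusted p = 0.005282). Night values lie above most day values, with overlap between 8.77 and 9.80%. The distal bins 2 and 3 held 3.35 CPM by day and 3.95 at night while coding bins 13, 15 and 16 went from 11.5 to 6.15, and the gene fell by 0.50 (edgeR adjusted p = 0.02018). The retained intron bins 17 to 20 held 3.04 and 3.00 CPM, and their share went from 9.11 ± 2.32 to 13.55 ± 3.17%, so the rise in share was not limited to the distal bins. The proximal 3′ end, bins 7 to 10, went from 12.29 ± 2.68 to 9.42 ± 1.59%. These sums were not tested. Rbm3 was the one called gene of 21 tested for temperature and heat shock (4.76%, beside 1.51% over all genes), and at gene level 13 of the 23 members were higher and 2 lower at night, where 11.7% and 11% of all genes were. Det1, a ubiquitin ligase component, used the last exon bin 1 at 16.1 ± 6.57% by day and 9.02 ± 3.25% at night (-0.93, adjusted p = 0.002478).

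Other bins of at least 5% included Wdr89 bin 3, with 11.9, 16.6 and 28.2% by day against 21.6, 30.6 and 46.2% at night (0.95, SE 0.16, Simes adjusted p = 0.0001004). The 2 groups overlap between 21.6 and 28.2%. Cdc26, a subunit of the anaphase-promoting complex, used bin 2 at 10.8 ± 2.61 and 6.50 ± 1.60% (-0.72, adjusted p = 0.002008), and the unnamed gene 4930581F22Rik used bin 25 at 18.9 ± 5.69 and 11.4 ± 2.25% (-0.74, 0.0002226). Vti1a, a vesicle SNARE, rose at bin 17 from 4.25 ± 2.38 to 8.35 ± 3.48% (1.03, 0.001757). Gm12940 bin 6 rose from 8.35 ± 3.52 to 16.3 ± 6.00% (0.99, 0.002528), but exons of Zmym1 on the opposite strand overlap it. Chd9, a chromatin remodeler, used bin 14 at 10.8 ± 5.28 and 17.9 ± 10.1% (0.78, 0.008838). By time the Chd9 share was highest at CT12 (26.8%) and CT16 (24.6%) and was 11.3% at CT20. The Chd9 call was lost without control CT4 replicate 3 (0.72, 0.0508) and without control CT16 replicate 1 (0.57, 0.233). 0610031O16Rik bin 1 fell from 5.96 ± 5.37 to 1.85 ± 2.02% (-1.40, 0.01123), with control libraries at 10.8 and 3.03% and MCD libraries at 1.12 and 0.672%. Its call was lost without control CT4 replicate 3, CT8 replicate 2, CT16 replicates 1 and 3 or CT20 replicate 1 (-1.19 to -1.31, adjusted p 0.0535 to 0.13).

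The comparison was repeated within 1 diet and within 1 kind of library. Each change below is of the bin that led in the full fit, and each call and adjusted p is of the whole gene. For 10 of the genes with a bin of at least 5%, chosen after their values were seen, the changes were as follows. In MCD alone 7 were called: Wdr89 (1.44), Cdc26 (-1.03), Det1 (-1.29), Mrpl57 (1.06), Rbm3 (0.91), 4930581F22Rik (-0.93) and Eva1a (-0.80), with edgeR Simes adjusted p from 1.51e-07 to 0.0025. In that diet Gstt2 (-0.95, 0.174), Slc39a7 (0.66, 0.797) and Vti1a (0.83, 0.399) were not. In the control diet alone Gstt2 was called (-1.57, 0.00502). The others were not called, and their direction in each diet was part of the rule that named them: Wdr89 by 0.40, Cdc26 by -0.40, Det1 by -0.49, Mrpl57 by 0.63, Rbm3 by 0.70, 4930581F22Rik by -0.55, Eva1a by -0.69, Slc39a7 by 0.85 and Vti1a by 1.29 (adjusted p 0.171 for Vti1a, 0.633 for Slc39a7 and 1 for the rest). In the low mt-Nd6 kind alone Wdr89 (1.15), Cdc26 (-0.94), Det1 (-0.92), Mrpl57 (0.93), Rbm3 (0.88), 4930581F22Rik (-0.92) and Gstt2 (-1.19) were called, with adjusted p from 0.000809 to 0.0283. In that kind Eva1a (-0.49, 0.749), Slc39a7 (0.80, 0.127) and Vti1a (0.83, 0.549) were not. The high kind, with 10 libraries, gave no call for any of the 10. The changes there were 0.66 for Wdr89, -0.40 for Cdc26, -1.01 for Det1, 0.74 for Mrpl57, 0.66 for Rbm3, -0.48 for 4930581F22Rik, -1.43 for Gstt2, -1.16 for Eva1a, 0.67 for Slc39a7 and 1.33 for Vti1a (adjusted p 0.105 to 1). These 10 genes are not among the 24 that the edgeR test of diet by phase called. A difference between the kinds was not tested. Chd9 was called in none of the 4 subsets, with 0.90 in control (adjusted p = 0.361), 0.66 in MCD (0.0872), 0.98 in the low kind (0.0587) and 0.47 in the high kind (1). Gm12940 was called in the low kind (1.2, 0.0105) and not in control (1.34, 0.0757), MCD (0.70, 0.82) or the high kind (0.63, 1). The change of 0610031O16Rik was -0.77 in the low kind (adjusted p = 1) and -2.09 in the high kind (0.00648), and it was called in control alone (-1.96, 2.52e-05).

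**Figure D2:**
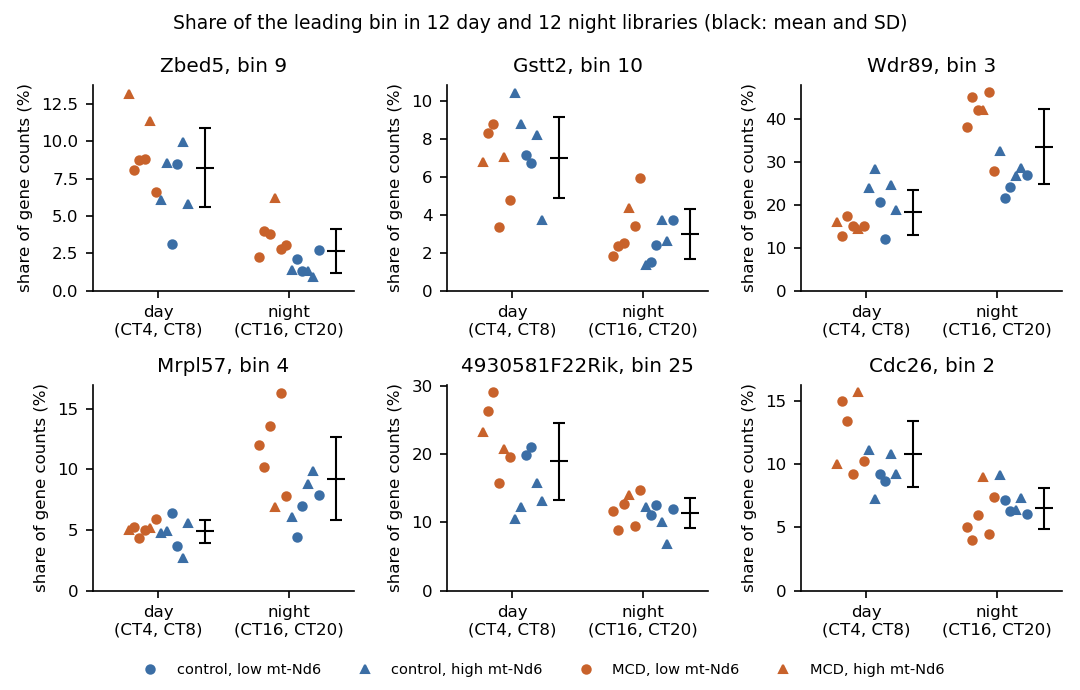
Share of a gene's reads in the leading bin, one point per library (12 day, 12 night; colour diet, shape mt-Nd6 kind, black mean ± SD), for 6 genes. Zbed5, Gstt2, 4930581F22Rik and Cdc26 are lower at night and Wdr89 and Mrpl57 higher; Wdr89 goes from 18.2 ± 5.15% to 33.4 ± 8.72%.

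Sphk2, a sphingosine kinase, was called at bin 1, a last exon of 800 bases: 1.03, 2.13 and 25.4% by day against 0.973, 1.29 and 3.41% at night (-1.24, SE 0.26, Simes adjusted p = 0.005072). An exon of Dbp on the opposite strand overlaps this bin, and Dbp fell by 4.40 on the log2 scale. Within the low mt-Nd6 kind the change was -0.16 with an adjusted p of 1, within the high kind -2.62 (9.01e-05), and without the mt-Nd6 term -2.15 (5.58e-12). The call was lost without control CT8 replicate 2, control CT20 replicates 1 or 2, or MCD CT20 replicate 1 (-0.98 to -1.06, adjusted p 0.0824 to 0.25). No source used here gives the strand setting of the counting, and the part of Dbp reads in this share was not tested. Of 174 called genes with an annotation match, 5 had a leading bin overlapped by exons of an expressed gene on the opposite strand (Cideb by Nop9, Gm12940 by Zmym1, Paics by Ppat, Rpl18 by Sphk2, Sphk2 by Dbp), named after their values were seen.

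Bins that M21 places in retained-intron transcripts alone made up 57 of the 187 leading bins (30.5%), beside 1300 of 12198 leading bins of the other genes (10.7%) and 7868 of 191021 bins (4.12%). These sets were not matched for level: the called genes had a median of 147 CPM against 16.8 for all tested. Bins with a small share of a gene pass the count filter more easily in highly expressed genes, and the part of level in these shares was not tested. They were 42 of the 105 leading bins used more at night (40%) and 15 of the 82 used less (18.3%). Among all 7868 such bins, 86 were used more (1.09%) and 33 less (0.419%), with a median relative change of 0.09 and 63.3% above 0; among the 171417 other matched bins, 110 were called in each direction (0.0642%) and the median was 0. The share of all matched reads in such bins was 0.627 ± 0.042% by day and 0.639 ± 0.039% at night (two-sided permutation p = 0.472). In the low kind the share was 0.604 ± 0.028% (n = 6) by day and 0.640 ± 0.031% (n = 8) at night, and in the high kind 0.650 ± 0.044% (n = 6) and 0.637 ± 0.057% (n = 4). Examples, chosen after their values were seen, were the copper carrier ceruloplasmin Cp (0.0962 to 0.296%, relative change 1.61, adjusted p = 4.994e-27), the LPS-binding protein Lbp (0.0742 to 0.298%, 2.11, 9.642e-06), the vacuolar lipid kinase scaffold Vac14 (0.382 to 1.58%, 2.02, 5.673e-08), the peroxisomal carnitine octanoyltransferase Crot (0.0596 to 0.163%, 1.69, 5.41e-06), and, in the other direction, the urea cycle enzyme Asl (0.266 to 0.0864%, -1.75, 1.749e-12) and the methyltransferase Inmt (4.50 to 1.59%, -1.42, 4.739e-05).

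**Figure D3:**
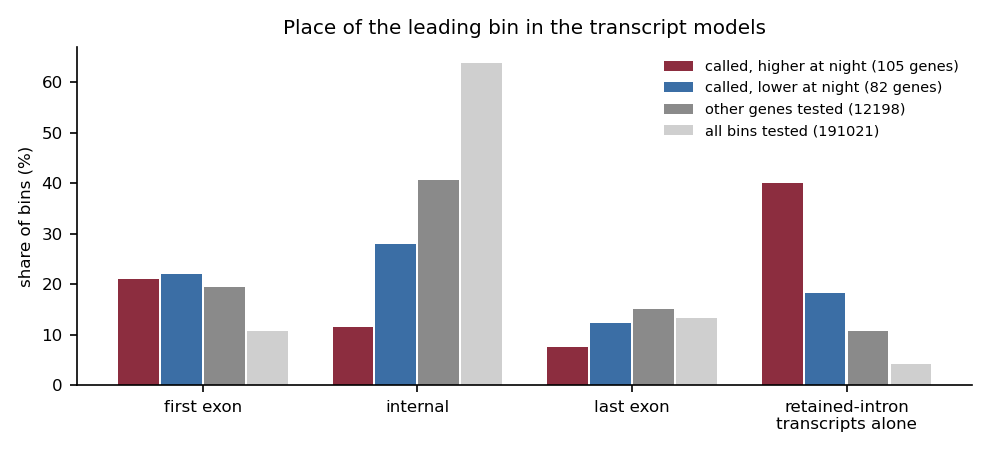
Percent of bins by annotated place (first exon, internal exon, last exon, retained-intron transcripts alone) for leading bins used more at night (105 genes), used less (82), leading bins of the other 12198 genes and all 191021 bins. Retained-intron bins are 40% of those used more and 18.3% of those used less, beside 10.7% and 4.12%. The sets were not matched for gene level.

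In the splicing regulator Hnrnpl, intron bins took a larger share at night, when the level of the gene was lower. Hnrnpl, which represses or activates exons by binding CA-rich RNA, was called at bin 22, whose sequence is printed above: 0.475, 0.707 and 1.13% by day and 0.810, 1.15 and 2.38% at night (0.80, SE 0.17, Simes adjusted p = 0.008181). The ranges overlap between 0.810 and 1.13%, and intron bin 20 changed by 0.58. In CPM bin 22 was at 1.03 by day and 1.10 at night, the intron bins 20 to 23 together at 10.0 ± 1.57 and 9.04 ± 1.33, and the other bins at 131 ± 37.8 and 73.5 ± 17.6, and the gene fell by 0.67 (adjusted p = 0.0005553). The Hnrnpl change was 1.12 in the low kind and 1.24 in MCD, both called, but 0.34 in the high kind alone and 0.34 in control alone, each with an adjusted p of 1. Of 64 splicing regulators tested, 2 were called (3.12%, beside 1.51% over all genes), 9 had an unadjusted Simes p under 0.05 (5.29% over all genes), and the median size of the leading change was 0.38 beside 0.31 over all genes. The F test called 16 of the 64 (404 of 12385 genes over all, 3.26%) and limma 7 (329 over all, 2.66%). At gene level 14 were higher and 9 lower (11.7% and 11% over all genes).

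**Figure D4:**
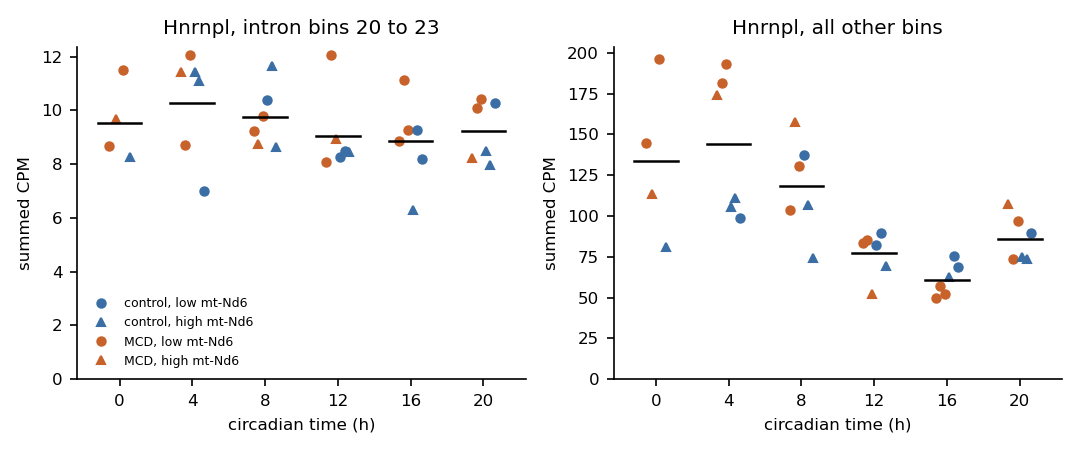
Summed CPM per library of Hnrnpl by circadian time, intron bins 20 to 23 on the left and all other bins on the right (black line, mean). The intron bins have means of 10.0 CPM by day and 9.04 at night while the other bins go from 131 to 73.5.

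Of the genes of methionine metabolism, 4 of 17 were called (23.5%, beside 1.51% over all genes), with 7 at an unadjusted Simes p under 0.05 (655 of 12385 over all, 5.29%). The list had a median of 163 CPM. In the top 10% of genes by mean CPM (median 207 CPM) 8.47% were called, so 1.51% is a low yardstick for it. Cbs, which commits homocysteine to cysteine synthesis, used retained-intron bin 12 at 0.0935, 0.142 and 0.506% by day and 0.472, 0.845 and 1.23% at night. The ranges overlap between 0.472 and 0.506%, with a relative change of 1.81 (SE 0.17, Simes adjusted p = 1.574e-18), and bins 1 and 19 changed by 1.28 and 1.49. Bhmt, which remethylates homocysteine with betaine, used bin 6 at 0.0115, 0.0842 and 0.191% by day and 0.0869, 0.389 and 0.652% at night (2.39, SE 0.29, adjusted p = 2.874e-10), and its 2933-base bin 4 went from 0.594 to 2.55%. Ahcy, which hydrolyses S-adenosylhomocysteine, used retained-intron bin 11 at 0.191, 0.253 and 0.514% by day and 0.0969, 0.128 and 0.287% at night (-0.89, SE 0.17, adjusted p = 0.0004275). Gnmt, which spends S-adenosylmethionine on glycine, used bin 4 at 0.474 ± 0.161 and 0.751 ± 0.174% (0.74, SE 0.18, adjusted p = 0.03775), and that call was lost without any one of 12 libraries: control CT4 replicates 1 and 3, MCD CT4 replicates 2 and 3, control CT8 replicate 3, MCD CT8 replicate 1, control CT16 replicates 2 and 3, MCD CT16 replicates 2 and 3, and control CT20 replicates 1 and 2 (0.67 to 0.76, adjusted p 0.06 to 0.224). At gene level 8 of the 17 were higher and 0 lower at night (11.7% and 11% over all genes). By the F test in place of Simes 3 of the 17 were called (3.26% over all genes) and by limma 4 (2.66%). Ahcy (F test 0.107, limma 0.213) and Gnmt (0.0914, 0.175) were called by neither. Cbs and Bhmt were called in each diet alone and in each kind alone. Ahcy was called in the low kind (-1.16, 0.00147) and not in control (-0.77, 1), MCD (-1.04, 0.0721) or the high kind (-0.53, 1). Gnmt was called in none of these 4 subsets (0.37 to 0.99, 0.0965 to 1).

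**Figure D5:**
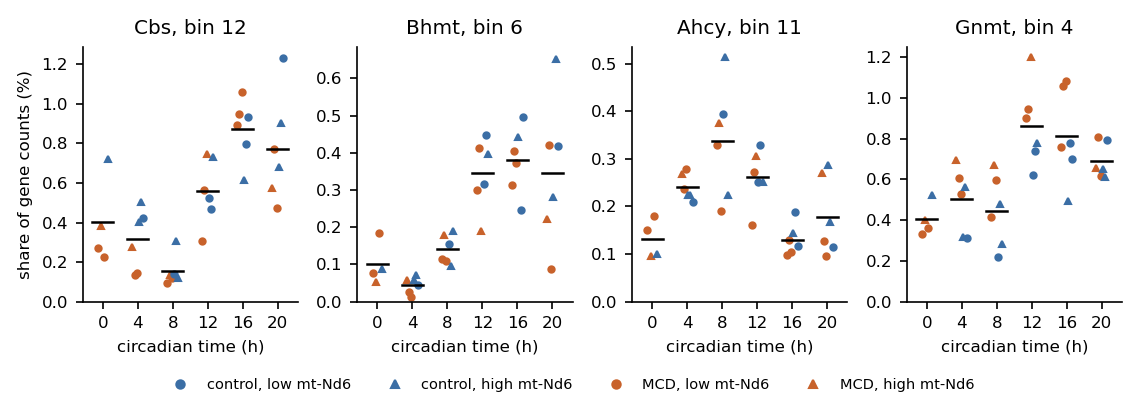
Share of the gene's reads in the leading bin of Cbs, Bhmt, Ahcy and Gnmt against circadian time, one point per library. Cbs is at 0.153% at CT8 and 0.874% at CT16, Bhmt at 0.0452% at CT4 and 0.380% at CT16, and Ahcy falls from 0.338% at CT8 to 0.131% at CT16.

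Among genes of xenobiotic metabolism 5 of 28 were called (17.9%, beside 1.51%). Gstt2, a glutathione transferase, used bin 10 at 3.36, 7.08 and 10.4% by day and 1.37, 2.55 and 5.91% at night (-1.27, SE 0.22, Simes adjusted p = 5.535e-05), with bins 1 and 11 at -1.35 and -1.16, and the gene fell by 1.25 (edgeR adjusted p = 8.329e-05). Gsta3, another transferase, used bin 8 at 0.418 ± 0.204 and 0.153 ± 0.0550% (-1.42, 2.378e-08), Ces1d, a carboxylesterase, bin 17 at 0.199 ± 0.105 and 0.0581 ± 0.0297% (-1.73, 0.0005809; 0.999 with limma, 0.36 without replicate 2 and 0.67 without replicate 3 of every group), and Abcb11, the bile salt export pump, bin 36 at 0.367 ± 0.0994 and 0.186 ± 0.0497% (-0.90, 5.535e-05). Gstm1 bin 9 rose from 0.0333 ± 0.0145 to 0.0647 ± 0.0261% (0.81, 0.02539). Its call was lost without any of 12 libraries (control CT4 replicates 2 and 3, MCD CT4 replicate 3, control CT8 replicate 3, MCD CT8 replicates 1, 2 and 3, control CT20 replicates 1 and 2, MCD CT20 replicates 1, 2 and 3; adjusted p 0.0541 to 0.135). The F test and limma each called 3 of the 28 (3.26% and 2.66% over all genes). In control alone Gsta3 (-0.87, adjusted p = 0.217), Ces1d (-0.91, 1) and Abcb11 (-0.83, 0.361) were not called, and in the high kind they were not either (-1.10, -1.17 and -0.75, each 1). In MCD alone all 3 were called, with -1.99, -2.71 and -1, as in the low kind, with -1.64, -2.13 and -1.01. Gstm1 was called in the high kind (1.56, 0.0023) and not in the low kind (0.46, 1), control (0.99, 1) or MCD (0.72, 0.237). Feeding genes held 2 calls of 45 (4.44%, beside 1.51% over all genes), with 5 at an unadjusted Simes p under 0.05 (5.29% over all genes). The F test called 0 of the 45 (3.26% over all genes) and limma 3 (2.66%). Mlxipl, the glucose-responsive factor ChREBP, used bin 11 at 0.426 ± 0.0532 and 0.706 ± 0.141% (0.71, 0.002287), and in the subsets the call was made in MCD (0.93, 0.00462) and not in control (0.48, 1), the low kind (0.76, 0.197) or the high kind (0.63, 1). Cpt1a, which commits fatty acids to oxidation in mitochondria, used the first-exon bin 3 at 0.833 ± 0.114 and 0.495 ± 0.376% (-0.72, 0.04603), and its call was lost without any of 14 libraries (control CT4 replicates 1 and 3, MCD CT4 replicate 3, control CT8 replicates 1, 2 and 3, MCD CT8 replicates 1 and 3, MCD CT16 replicates 2 and 3, control CT20 replicates 1, 2 and 3, MCD CT20 replicate 2; adjusted p 0.0602 to 0.326). Of the 24 core clock genes, 0 were called by edgeR's Simes test, with 1 at an unadjusted Simes p under 0.05 (5.29% over all genes). The F test and limma called 0 (3.26% and 2.66% over all genes). With 1.51% called over all genes, 0 of 24 cannot show that usage was unchanged. The largest leading change, Dbp bin 6, was -1.37 (SE 0.55), with shares of 5.37 ± 2.35% by day and 1.58 ± 1.37% at night. At gene level 8 of the 24 were higher and 6 lower (11.7% and 11% over all genes). Cpt1a was called in none of the 4 subsets (-0.45 to -1.12, 0.0722 to 1). The lists differ in level, from a median of 38.7 CPM for the clock genes to 425 for xenobiotic metabolism, with 187 for feeding. Calls were more frequent at high levels, with 8.47% in the top 10% of genes by mean CPM (median 207 CPM).

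In 11 of the 187 genes the shares of the 12 day and 12 night libraries did not overlap, 7 of them higher at night; over all 12217 genes with a share in every library the number was 15 (0.123%). They were picked by that property after their values were seen. Lgals9, a galectin, went from 0.0832 to 0.254% by day to 0.289 to 0.679% at night, the glucokinase regulator Gckr from 0.761 to 1.61% to 1.73 to 2.75%, the helicase Ddx46 from 1.30 to 2.36% to 2.52 to 4.37%, and Mad2l2, a DNA repair factor, from 0.0809 to 0.723% to 0.917 to 1.72%. These 4 lie in retained-intron bins, as did Dbi and Gstm2. The chaperone cofactor Dnajb11 (0.324 to 2.13% by day, 0 to 0.322% at night), the growth factor Fgf1 (1.36 to 2.28%, 0.394 to 1.21%), Phyh and Rnf125 went the other way, and the gap junction gene Gjb1 went from 0.504 to 0.860% to 0.867 to 1.40%.

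Diet in the same libraries gave 159 genes (1.28%), 30 of them shared with the phase calls (16% of the phase list and 18.9% of the diet list). A term for diet by phase, which tests whether the night effect differs between diets, called 24 genes (0.194%). Dpys, dihydropyrimidinase, called for diet with bin 14, took 12.6% by day and 3.61% at night in MCD but 0.477 and 0.440% in control (interaction -1.97, Simes adjusted p = 0.0001908). It was also called for phase (-1.05, adjusted p = 4.315e-05), with -1.89 in MCD alone and 0 in control alone. The phase value without replicate 2 of every group was -0.61 (adjusted p = 1). The ribosomal protein genes Rpl41 (interaction -6.25) and Rpl6 (-3.52) and Rabggtb (6.02) were called by the same term. Their bins are short, with 23, 7 and 14 bases, and the Rabggtb bin had a mean of 14.6 counts. The Rpl41 share spanned 0.0598 to 13.2% by day and 0.140 to 10.9% at night. The Rpl6 share spanned 0.0277 to 1.16% and 0.0144 to 0.854%, and the Rabggtb share 0.0267 to 1.93% and 0 to 2.08%. Rpl6 (bin 3, -1.38, adjusted p = 0.0003869) and Phb2, a prohibitin (bin 20, -1.44, 1.347e-06), were called for phase too. In control alone Rpl6 stood at 0.50 (adjusted p = 1) and in MCD alone at -3.51 (7.73e-25). The Phb2 shares were 0.424 ± 0.557% by day and 0.397 ± 0.693% at night, with control libraries at 0.631 and 0.745% and MCD libraries at 0.218 and 0.0494%, and without the mt-Nd6 term its change was -0.46 with an adjusted p of 1. Mat2a, which makes S-adenosylmethionine, was called for diet and not for phase (bin 9, -0.26, adjusted p = 1).

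Markers of other cell types were compared between the phases at gene level, where 11.7% of all genes were higher and 11% lower. Of 8 macrophage markers 3 were lower (Cd68, Marco, Cd5l; summed level 313 to 1000 CPM by day, 260 to 677 at night), of 8 stellate cell markers 3 (347 to 1310, 294 to 541), of 7 endothelial markers 0, of 6 cholangiocyte markers 1 was higher, of 7 lymphocyte and 5 red blood cell markers 0. Among the markers tested for usage, which left out 2 of 6 cholangiocyte and 5 of 7 lymphocyte markers, 0 were called by edgeR's Simes or F test or by limma (1 hepatocyte marker had an unadjusted p under 0.05), and their part in the results was not tested.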

How the data were processed

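Raw counts per exon bin were deposited by the authors for 34 of the 36 liver libraries used here (2 further files, control CT0 replicates 1 and 2, end early and were not used). The submitters' processing notes name GRCm39, Trimmomatic, HISAT2, StringTie and DESeq2 with no roles. The deposited files are named as DEXSeq counts; no source used here gives the version, the strand setting or the annotation release. Reads outside bins or ambiguous stayed out of all totals.

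Bins were kept with edgeR 4.0.16 filterByExpr (minimum count 10) and TMM factors; glmQLFit (robust) and diffSpliceDGE in R 4.3.3 used diet, the kind of library (low or high mt-Nd6, cut at the widest gap) and night. Gene p-values are Simes with Benjamini-Hochberg adjustment over all genes tested, under 0.05. The gene level used summed bins. Alternatives used limma 3.58.1 and DESeq2 1.42.0, and plots Python 3.11.15. The scripts were tested on simulated data. Bins were matched by number to GENCODE M21 (51291 of the IDs, 48845 with the same number of bins). Permutation tests drew 100000 resamples.

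Named genes were called genes whose leading bin had a mean of at least 20 counts over the libraries, a mean share of at least 5% in a phase, a difference of at least 2 points and one direction in both diets: the 15 with the largest change and the 10 with the smallest p. Added were up to 8 called members of each list and 3 each for diet and diet by phase. The members and lists were chosen with earlier results of these data known. Each library is a separate mouse, but groups hold 3. One called gene of a list is counted but not reported here.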

Additional observations from a re-analysis of the deposited data

Results flagged for a closer look

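In the groups of 6 libraries that share a diet and phase, 13 of 136 checked had a library far from the others; chance gives about 1 in 20 for independent, normally spread values, and here a few libraries recur across genes. MCD CT20 replicate 1 is the one high mt-Nd6 library of the 6 of MCD at night, MCD CT4 replicate 1 and MCD CT8 replicate 2 are the 2 high ones of MCD by day, and control CT16 replicate 1 is 1 of 3 high ones of control at night; the part of the kind in these shares was not tested. The shares below are of the leading bin, with the nearest other library in brackets. In MCD by day, MCD CT4 replicate 1 stood apart for 0610031O16Rik (2.69%, nearest 1.14%), Cbs (0.278%, nearest 0.145%) and Det1 (14.1%, nearest 21.1%), MCD CT8 replicate 3 for Phb2 (1.01%, nearest 0.0836%), MCD CT8 replicate 2 for Sphk2 (19.9%, nearest 5.96%) and MCD CT4 replicate 3 for Vti1a (8.83%, nearest 6.36%). In MCD at night, MCD CT20 replicate 1 stood apart for Ahcy (0.271%, nearest 0.129%), Dpys (10.8%, nearest 3.59%) and Rpl41 (2.59%, nearest 0.753%), and MCD CT16 replicate 3 for Rpl6 (0.142%, nearest 0.0657%). In control at night, control CT16 replicate 1 stood apart for Ces1d (0.14%, nearest 0.0731%), Rpl41 (10.9%, nearest 0.349%) and Sphk2 (3.41%, nearest 1.54%).

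The night-minus-day change differed between MCD and control, by the edgeR interaction term, for 24 genes. Among those described, the difference was -1.97 for Dpys bin 14 (Simes adjusted p = 0.000191), -1.49 for Mat2a bin 6 (0.0332), 6.02 for Rabggtb bin 29 (2.55e-12), -6.25 for Rpl41 bin 7 (2.21e-14) and -3.52 for Rpl6 bin 3 (1.92e-09), on the log2 scale.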

How the results depend on the processing

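For night against day, the gene-level F test called 404 genes, limma 329 (138 shared), the low kind alone 114, the high kind alone 50 and control alone 36; leaving out libraries gave 56 to 193, the lowest without replicate 2 of every group (79 without replicate 1, 101 without replicate 3), and 101 genes were called in every fit without 1 library. The other fits gave 146 to 237. For diet, the F test called 346 and the fit without the mt-Nd6 term 297, and leaving out a replicate 73 to 114. For diet by phase, the F test called 45 and leaving out libraries 12 to 31. At gene level leaving out libraries gave 1102 to 3466. Reversed changes were Dpys in the high kind (0.09) and in control alone (0), Rpl41 in the high kind (2.87), control alone (3.2), with sex (0.12) and without replicate 3 (1.06, beside -2.88 without replicate 1), Mat2a in control alone (0.23), Rpl6 in control alone (0.5) and Phb2 with limma (0.24); the cause was not tested. The Phb2 call was lost without MCD CT8 replicate 3 (-0.6, adjusted p = 1). Zbed5, Pnkd, Cbs and Bhmt kept their call in all 42 settings. Calls were lost with the F test for Sphk2, Mlxipl, Cpt1a, Ahcy, Gnmt, Gstm1, Abcb11 and Phb2, with limma for Ahcy, Gnmt, Ces1d and Gstm1, with sex as a term for Cpt1a, Gnmt and Gstm1, without the mt-Nd6 term for Gstm1 and Phb2, with no filter for Cpt1a and Gnmt, and with 8 groups for 0610031O16Rik and Gnmt. Without 1 replicate number of every group, those lost at least once were 0610031O16Rik, Gstt2, Sphk2, Vti1a, Gm12940, Wdr89, Det1, Rbm3, Chd9, Slc39a7, Eva1a, Hnrnpl, Mlxipl, Cpt1a, Gnmt, Abcb11, Gstm1, Dpys, Mrpl57, 4930581F22Rik, Cdc26, Ahcy, Ces1d, Phb2 and Rpl6. With the replicate number as a block, the calls of Sphk2 (-1.02, adjusted p = 0.0682) and Cpt1a (-0.74, 0.0859) were lost, and 209 genes were called for phase, 162 for diet, 21 for diet by phase and 4020 at gene level. The labels do not say that the numbers pair mice, and the main fit has no term for them. Same-numbered pairs from different groups correlated at -0.55 to 0.78 (median 0.23, 84 pairs, 54 over 0.1). Of 24 libraries, 15 correlated best with their own number. By the labels replicate 3 was the female in each group, so the number also carries sex. What the libraries of a number share was not tested. Gene IDs that join several genes did not occur, so leaving them out changed nothing. Thinning was chosen after seeing the data.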
